A study of Mus musculus with 24 samples.

Results

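The genes described here lie at the proximal end of mouse chromosome 11, where RNA of the clonal cell line Abl.1 came almost only from the maternal-column allele at many genes. The members were chosen by position and coverage as the chromosome 11 genes from Pisd-ps1 at the centromeric end to Wdr92 (start 17182107, GRCm38) that have 50 or more allelic counts summed over both Abl.1 libraries, without Ikzf1 and Grb10. This gave 73 genes, of 220 annotated in the segment and of 10654 genes with that coverage in the whole series. The ends of the segment were taken from Abl.1 allelic imbalance (AI), so every Abl.1 value below is a description and carries no test. Of the segment's other genes 146 had fewer than 50 Abl.1 counts, and 107 of these had none. Just inside the count limit were Gm11953 with 55 counts and an AI of 0.273, and Gm11401 with 75 counts and an AI of 0.160. Just outside it were Gm11999 with 39 counts and Gm11969 with 33, both with an AI of 1. Of 21 genes with 10 to 49 counts, which are no members, 13 had an AI of 0.9 or more and 2 had 0.1 or less.

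All samples were untreated (control) and of 129S1/SvImJ x CAST/EiJ F1 females. Abl.1 and Abl.2 are immortalised B cell lines of the Abelson lymphoblastoid kind, each a single clone grown in culture, with 2 library preparations each from 10 ng of total RNA with the SMARTseq kit. Abl.2 libraries were also resequenced, and the first run is used unless stated. Kidney libraries, 6 for each of 3 experiments, all came from 1 total RNA of the left kidney of 1 adult mouse, with the NEBNext kit and 100 ng of RNA or with the SMARTseq kit and 10 ng or 100 pg. Replicates are therefore library preparations, and p-values measure the spread between libraries, not between cultures or animals. Total allelic counts were 6138693 to 6702351 per kidney library and 19213150 to 22410835 per Abl library. The 12 B lineage markers summed to 7047 to 8915 CPM (counts in proportion to the library total) in the first-run Abl libraries and to 48.4 to 86.2 in kidney, while the 11 kidney markers summed to at most 15.8 in Abl libraries and to at least 19175 in kidney. The 6 T cell and myeloid markers summed to 168 to 309 in Abl libraries and to 69.2 to 172 in kidney. In the kidney libraries Miox, a proximal tubule enzyme, was at 0.

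Each autosomal gene of a diploid cell has a maternal and a paternal copy, and an RNA read that covers a polymorphic position can be assigned to one of them. AI is the maternal-column share of a gene's allelic counts, so that 0.5 is balanced expression. Per the study's methods the maternal allele is that of 129S1. The file headers name the columns maternal and paternal only, and these names are kept. A clone descends from 1 cell. A chromosome copy already lost in that cell, or an allele silenced there that stayed so, is thus shared by all its cells. A change that arose later in culture can be carried by part of the cells only. A tissue averages over many cells. DNA of Abl.1 was not measured. At genes with RNA of almost only 1 allele, loss of a copy and silencing cannot be told apart from these RNA counts. Other genes of the segment, given below, had paternal RNA in Abl.1.

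In Abl.1 the median AI of the 73 genes was 0.998, with a median of 0.997 in each library. In Abl.2 it was 0.486, with 0.499 in replicate 1 and 0.482 in replicate 2. Medians per library in kidney lay between 0.480 and 0.511 over the 3 experiments. At 48 of the 73 genes the Abl.1 AI was 0.98 or more, against 2.86% of all autosomal genes with 50 or more Abl.1 counts, a share that the choice of the segment fixed in part. A single member, Zmat5, had an AI of 0.02 or less, against 2.96% of those genes. The remaining 24 members had counts of both alleles. RNA of almost only 1 allele was thus found at these 48 genes and Zmat5, and not at the other 24. The limit uses Abl.1 alone and does not show that Abl.2 expressed the missing allele. Among the 48, for example, 8430429K09Rik had 136 maternal and 4 paternal counts in Abl.2, and Upp1 had no count there. Only 46 of the 48 had more than 3 paternal counts, summed over a clone's libraries, in at least 1 clone.

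**Figure D1:**
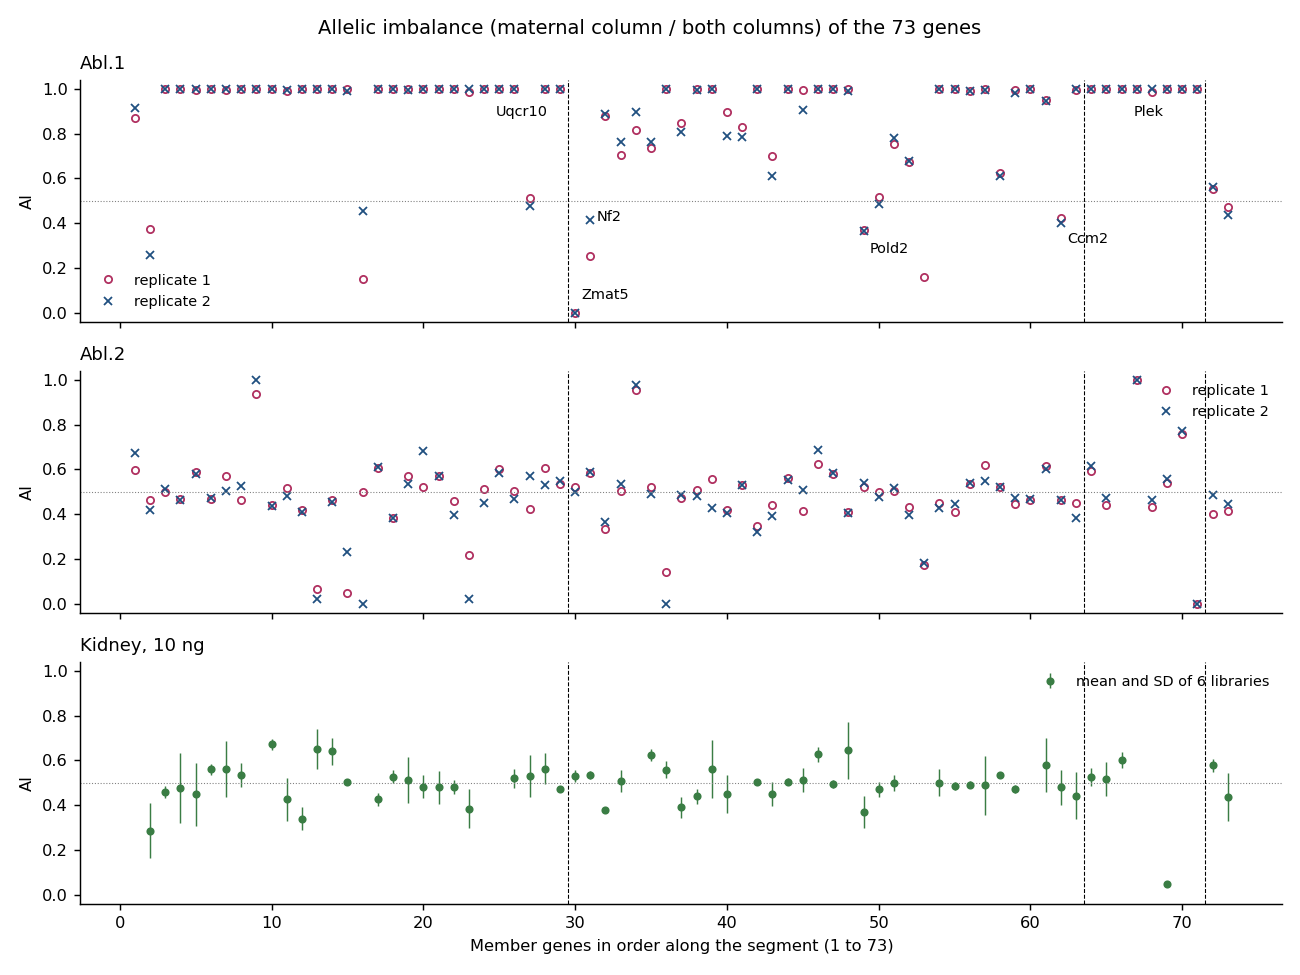
AI (maternal column over both columns) of the 73 genes in their order along the segment, for both Abl.1 libraries, both Abl.2 libraries and kidney at 10 ng (mean and SD of 6 libraries, genes with 10 or more counts in each). Dashed lines part the proximal, middle and distal stretches and the last 2 genes. Most Abl.1 points sit at the top in the proximal and distal stretches and scatter between 0 and 1 in the middle one, while most points of Abl.2 and kidney lie near 0.5.

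For description the genes were parted in their order into 4 stretches. Their ends, after Uqcr10, Tbrg4 and Plek, were set where the Abl.1 AI changed. The make-up of each stretch was thus fixed in part by that choice. The proximal stretch held 29 genes from Pisd-ps1 to Uqcr10 (end 4704342), of which 25 had an Abl.1 AI of 0.98 or more. The middle stretch held 34 genes from Zmat5 to Tbrg4 (4704678 to 6626067), of which 15 had an AI of 0.98 or more, 18 had both alleles and 1 had the paternal allele. The distal stretch held 8 genes from Tns3 to Plek (8431652 to 17052381), all with an AI of at least 0.993. The last 2 genes, Ppp3r1 and Wdr92, were close to balance.

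At the 48 genes of high AI, paternal counts made up 0.140% of all counts in Abl.1 replicate 1 and 0.204% in replicate 2. Their AI differed between the libraries by at most 0.0141. No paternal count was seen at 14 of them, 27 had 1 to 10 and 7 had more than 10. The small shares follow in part from the limit of 0.98 that defines these genes. For orientation, on the X chromosome, where one copy is inactivated in female cells, the median AI of 286 genes without Xist was 0.00101 in Abl.1, while the maternal column made up 8.67% and 7.15% of their summed counts.

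The first genes of the segment did not share this pattern. Pisd-ps1, a transcribed pseudogene of Pisd, had an AI of 0.867 in Abl.1 replicate 1 and 0.915 in replicate 2. Sfi1, which encodes a centrosome protein, had 0.375 and 0.256 on 80 and 39 counts, and in Abl.2 it had 0.464 and 0.419. Reads of a pseudogene can come from its parent gene, so the counts of Pisd-ps1 are uncertain, and those of Sfi1 are few. Over the segment the spans from start to end of 36 members, Sfi1 among them, overlap that of another gene. Only exon positions that several genes share were left out of the counting, and how many counts this cost was not examined. At the next gene, Drg1, a GTP-binding protein that acts on ribosomes, 2673 maternal and 4 paternal counts were found in Abl.1 replicate 1, and 3681 and 1 in replicate 2. In Abl.2 the counts of Drg1 were 3572 and 3593 in replicate 1, and 3980 and 3818 in replicate 2. From Drg1 to Uqcr10 the exceptions were 2 pseudogenes, Gm11953 and Gm11960, with pooled AI of 0.273 and 0.496.

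The proximal stretch ended between neighbours that are transcribed away from each other. Uqcr10, a subunit of mitochondrial complex III, had 18952 maternal and 23 paternal counts in Abl.1 replicate 1, and 10982 and 19 in replicate 2. In Abl.2 it had 7480 and 6460 counts in replicate 1, and 6056 and 5026 in replicate 2. Zmat5, a zinc finger protein of the minor spliceosome, had no maternal count in either Abl.1 library and 590 and 415 paternal counts. In Abl.2 it had 332 maternal and 304 paternal counts in replicate 1, and 325 and 328 in replicate 2. The 2 genes thus had opposite alleles in Abl.1, and both alleles in Abl.2. The 0 maternal counts of Zmat5 allow a maternal share of up to 0.299% (3 of 1005 counts, counting error only) if counts are independent. Counts are summed over polymorphic positions, so a read that covers several is counted more than once. The real limit can thus be higher. In kidney at 10 ng the AI of Zmat5 was 0.494 at the lowest, 0.538 at the median and 0.559 at the highest, and that of Uqcr10 was 0.469, 0.473 and 0.478.

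The start sites of Uqcr10 (4704344) and Zmat5 (4704656) are 312 bases apart in RefSeq, which had promoter entries for 55 of the 73 genes. The 250 bases before the Zmat5 start are printed because they span most of the stretch between the genes at which the expressed allele changes. They lie at chr11:4704406-4704655 of GRCm38.p6, on the plus strand, and 189 of them are also in the 250 bases before the Uqcr10 start, read on the other strand. Capitals mark CG dinucleotides, the sites at which DNA is methylated in mammals.
Zmat5 upstream: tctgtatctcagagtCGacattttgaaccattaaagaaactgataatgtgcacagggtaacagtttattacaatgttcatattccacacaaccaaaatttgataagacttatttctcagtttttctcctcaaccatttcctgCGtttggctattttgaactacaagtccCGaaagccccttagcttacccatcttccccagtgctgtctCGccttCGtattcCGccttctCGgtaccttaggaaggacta
It holds 7 CG dinucleotides, and 46.3% of the 32851 such windows of all genes hold as many or more (median 6). Methylation was not measured.

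**Figure D2:**
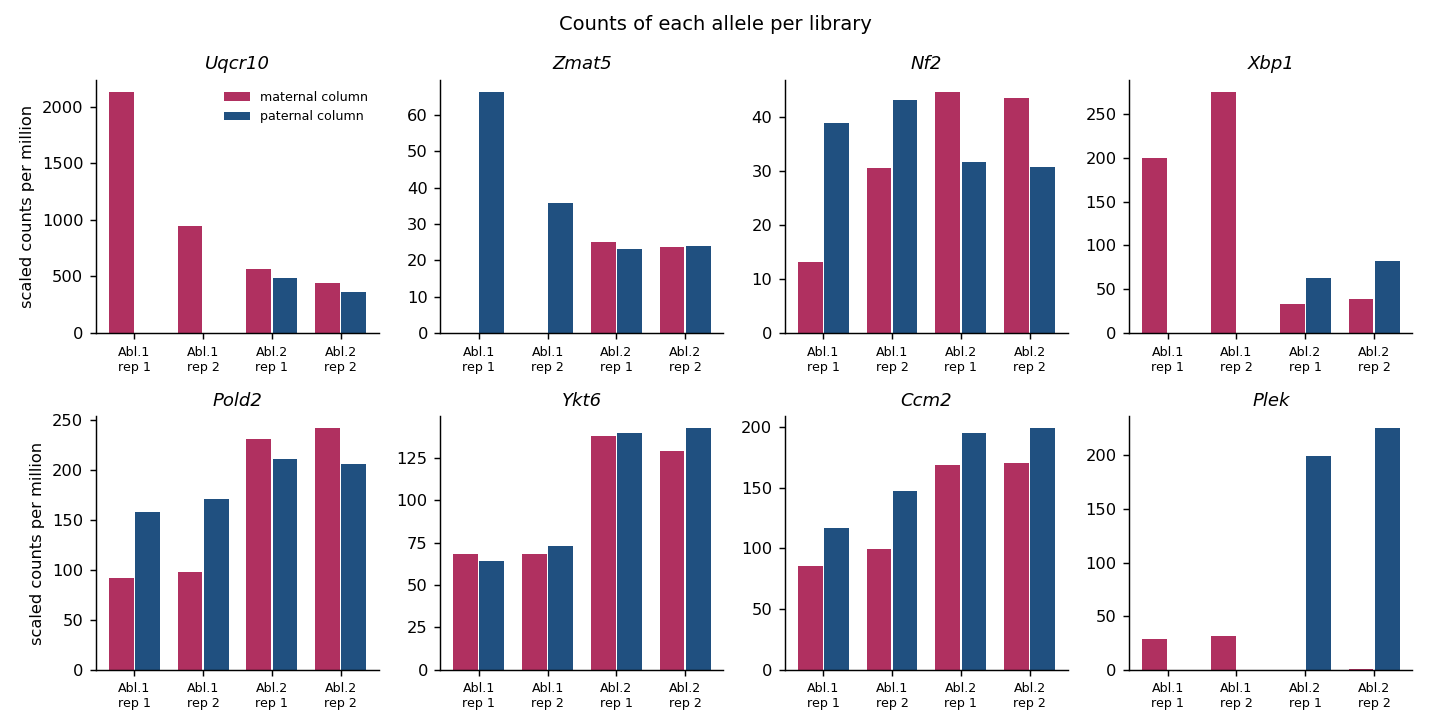
Counts of the maternal and the paternal column per library, in TMM-scaled CPM (counts in proportion to the scaled library total), for 8 members. Uqcr10, Xbp1 and Plek show the maternal and Zmat5 the paternal column alone in Abl.1, while Nf2, Pold2, Ykt6 and Ccm2 show both. In Abl.2 all show both but Plek, which shows the paternal column.

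In the middle stretch genes of high AI and genes with both alleles alternated. The 15 genes of AI 0.98 or more had a median length of 11196 bases and the 18 genes with both alleles one of 24914 bases, given as a description. Of these 18 genes 2 were pseudogenes, Rps15a-ps6 and Gm11401. Of the other 16 genes 12 had an AI above 0.55 in both Abl.1 libraries, 3 (Nf2, Pold2 and Ccm2) had an AI below 0.45 in both, and 1 (Ykt6) lay between these limits in both. Over the 24 members with both alleles, the AI of the Abl.1 libraries differed by a median of 0.0357.

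Of the 7 members of the list of DNA repair and growth control genes 3 had an Abl.1 AI of 0.98 or more and 4 had both alleles. Hus1, part of the 9-1-1 checkpoint clamp, had 262 and 526 maternal counts in Abl.1 and no paternal count. Polm, a DNA polymerase of end joining and of antigen receptor rearrangement, had 147 and 170 maternal counts and 0 and 2 paternal ones. Fignl1, a recombination factor, had 140 and 151 maternal counts and 2 and 0 paternal ones. In Abl.2 the same genes had counts of both alleles. The 0 paternal counts of Hus1 allow a paternal share of up to 0.381% if counts are independent, with the same reservation as for Zmat5.

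Nf2, which encodes the tumour suppressor merlin, had an AI of 0.254 in Abl.1 replicate 1 and 0.414 in replicate 2, below its 0.585 and 0.586 in Abl.2. Pold2, a subunit of the replicative DNA polymerase delta, had 0.369 and 0.363, against 0.523 and 0.540 in Abl.2. The Wnt pathway regulator Kremen1 had 0.896 and 0.787 in Abl.1, against 0.417 and 0.403 in Abl.2. In Abl.1 paternal counts were thus the larger part at Nf2 and Pold2 and the smaller part at Kremen1. The fourth gene with both alleles was Znrf3, another Wnt regulator, on 104 counts.

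Among the 11 RNA and chromatin genes 8 had an Abl.1 AI of 0.98 or more, 2 had both alleles and Zmat5 the paternal one. The splicing factor Sf3a1 had 1401 and 2414 maternal counts in the Abl.1 libraries and 4 and 3 paternal ones. The helicase Ddx56 had 1242 and 2497 against 4 and 5. The long noncoding RNA Tug1 had 558 and 496 against 0 and 1. Eif4enif1, Patz1, Morc2a, Ascc2 and Drg1 belong to the same class, with at most 5 paternal counts each over both libraries.

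The 2 RNA genes with both alleles were Thoc5, of the mRNA export complex THO, and Ewsr1, an RNA-binding protein. Thoc5 had an AI of 0.706 and 0.761 in Abl.1, and 0.504 and 0.533 in Abl.2. Ewsr1 had 0.846 and 0.806 in Abl.1, and 0.470 and 0.486 in Abl.2. Rhbdd3 overlaps Ewsr1 and had 482 and 964 maternal counts with 0 and 7 paternal ones, so that overlapping neighbours differed. Snhg15, a small nucleolar RNA host gene, had 10074 and 7173 maternal against 512 and 431 paternal counts in Abl.1 (AI 0.952 and 0.943), and an AI of 0.614 and 0.602 in Abl.2. The histone variant gene H2afv had 0.625 and 0.612 in Abl.1, and 0.523 and 0.520 in Abl.2.

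Of 6 mitochondrial genes 5 had an AI of 0.98 or more. These were Uqcr10, the fission factor Mtfp1, the tricarboxylic acid cycle enzyme Ogdh, the ribosomal protein Mrps24 and the RNA regulator Tbrg4. Mrps24 had 11363 and 7126 maternal counts and 8 and 11 paternal ones in Abl.1. Ogdh, with 689 and 1012 against 8 and 11, kept a paternal share of 1.10%. The sixth, Nipsnap1, had an AI of 0.880 and 0.889 in Abl.1, 0.334 and 0.366 in Abl.2, and in kidney at 10 ng a mean of 0.378. Its counts thus lay on the maternal side in Abl.1 and on the paternal side everywhere else.

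In the list of membrane traffic and protein folding genes 5 of 7 members had an AI of 0.98 or more. Xbp1, the transcription factor of the unfolded protein response and of plasma cells, had 1775 and 3200 maternal counts and 1 and 2 paternal ones in Abl.1, and in Abl.2 an AI of 0.348 and 0.321. Sec61g, a subunit of the translocon, had 6892 and 4503 against 2 and 6 in Abl.1. Tmed4, Tbc1d10a and Rnf185 were alike, with at most 2 paternal counts.

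The adaptor subunit Ap1b1 had an AI of 0.734 and 0.764 in Abl.1, and 0.520 and 0.490 in Abl.2. The SNARE protein Ykt6 had 0.515 and 0.484 in Abl.1, and 0.497 and 0.475 in Abl.2. Ykt6 was the sole gene of the middle stretch with balanced alleles in both libraries of both clones by the limits above.

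The blood cell signalling and cytoskeleton list had 8 of 9 members at an AI of 0.98 or more. Plek, a substrate of protein kinase C in blood cells, was the last gene of the distal stretch. It had 259 and 368 maternal counts and no paternal count in Abl.1, but 2 and 4 maternal against 2638 and 3091 paternal counts in Abl.2. The 2 clones thus expressed opposite alleles of Plek. The actin-binding protein Dbnl had 3637 and 6729 maternal and 7 and 13 paternal counts in Abl.1. The myosin Myo1g had 957 and 2300 against 3 and 7, and the PI3 kinase inhibitor Pik3ip1 had 301 and 450 against 0 and 0.

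Limk2, Osm, Lif and Mtmr3 also had at most 2 paternal counts. The exception was Ccm2, an adaptor protein known from cerebral cavernous malformations, with an AI of 0.423 and 0.402 in Abl.1, and 0.464 and 0.461 in Abl.2. The list of epithelial and kidney genes had 2 members of 10 listed. Smtn, a smooth muscle cytoskeleton protein, had an AI of 0.988 and 0.992, and the uridine phosphorylase Upp1 had 507 and 541 maternal counts against 0 and 1. Upp1 had no count of either allele in Abl.2.

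At the distal end the class changed between neighbours. After Sec61g and the noncoding RNA Eldr (129 maternal and 0 paternal counts), Plek was the last gene with maternal counts alone. Ppp3r1, the regulatory subunit of calcineurin, starts at 17159263 and had an AI of 0.551 and 0.563 in Abl.1, and 0.402 and 0.484 in Abl.2. Wdr92, which starts at 17182107, had 0.474 and 0.438 in Abl.1, and 0.412 and 0.448 in Abl.2. These 2 genes overlap in the annotation. Past the segment, C1d had an AI of 0.442 and 0.570 in Abl.1, Etaa1 0.523 and 0.431, Etaa1os 0.459 and 0.429, Spred2 0.487 and 0.527, and Actr2 0.559 and 0.570. These values came from 181, 2087, 184, 225 and 783 counts.

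To compare how much RNA of each allele the clones held, libraries were scaled by TMM on the reference autosomes, which are those other than 4, 5, 7, 10, 11 and 18 (6372 genes with 50 or more Abl.1 counts). The chromosomes were chosen with earlier results of these data known. A ratio is the mean log2 level of 2 Abl.1 libraries minus that of 2 Abl.2 libraries, with 0.5 added to each count, given as a fold. In bulk RNA, fewer copies and less RNA per copy cannot be told apart. Over the 73 genes the paternal allele had a median ratio of 0.00906 in Abl.1 over Abl.2, and 0.0150 over 71 genes when a clone without counts is set to the floor of 3 counts. The maternal allele had a median ratio of 0.903 (quartiles 0.557 and 1.63), against 1.03 over the reference autosomes, and its direction turned under other settings (1.02 at genes with 200 or more counts). Both alleles summed had a median ratio of 0.583 (quartiles 0.335 and 0.861), and 0.554 relative to the reference median.

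The summed counts were lower in Abl.1 at 57 of 73 genes, against 47.1% of the reference genes. At the 48 genes of high AI the median ratio was 1.16 for the maternal allele and 0.569 for both alleles summed. At the 24 genes with both alleles it was 0.821 and 0.596, and the paternal ratio was 0.418. The median sum was thus below 1 in both classes. On the rest of chromosome 11, 880 genes had a median Abl.1 AI of 0.577 and a median summed ratio of 1.29.

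**Figure D3:**
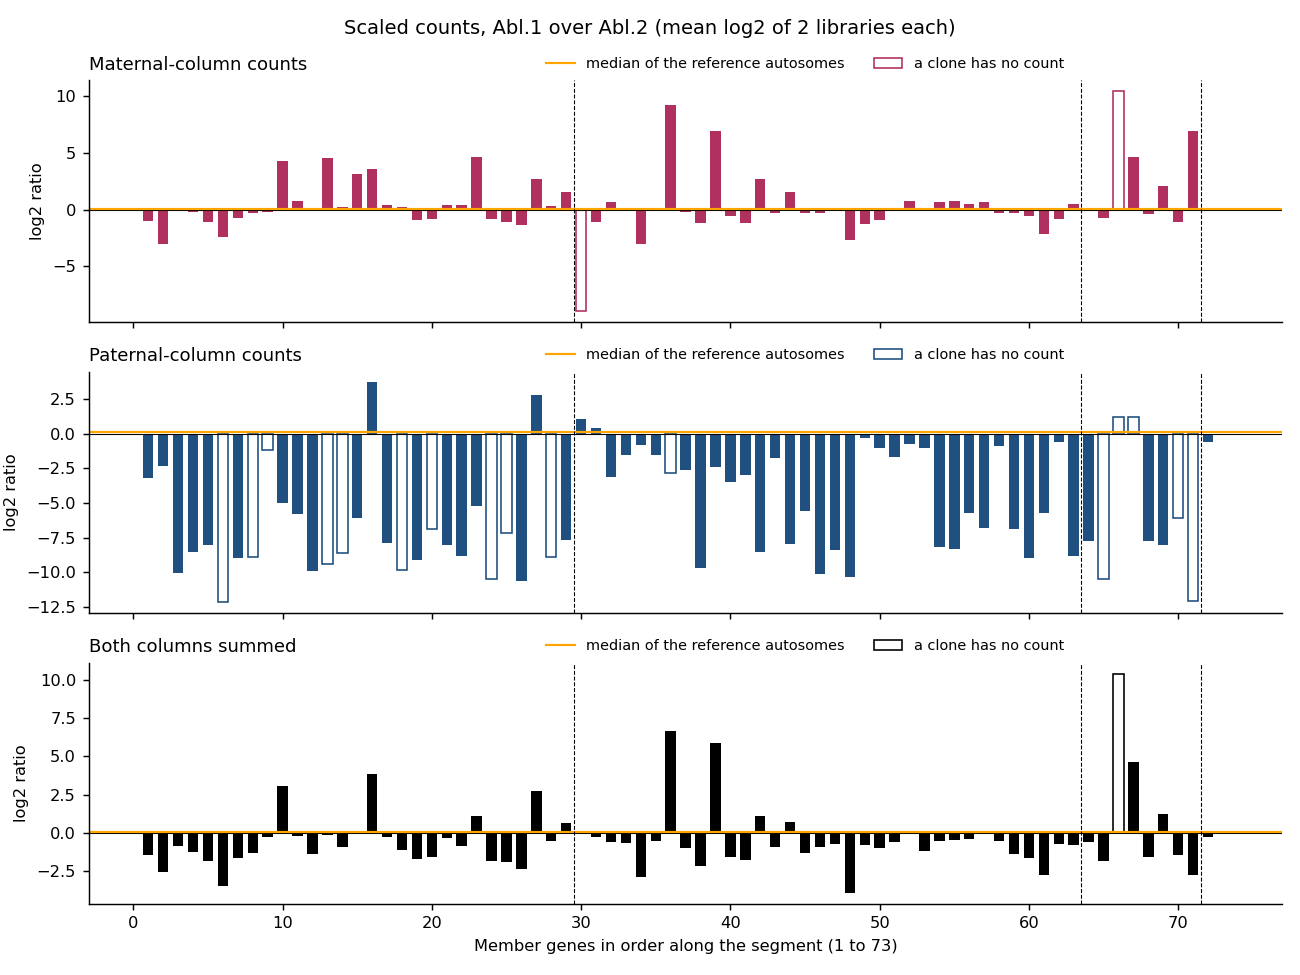
log2 ratio of TMM-scaled counts, Abl.1 over Abl.2, for the maternal column, the paternal column and both summed, by gene order, with dashed lines between the stretches. The orange line is the median of the reference autosomes, and open bars are genes at which a clone had no count, where the ratio depends on the added 0.5. Paternal bars point down at 67 of 73 genes, maternal bars at 38 and summed bars at 57.

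**Figure D4:**
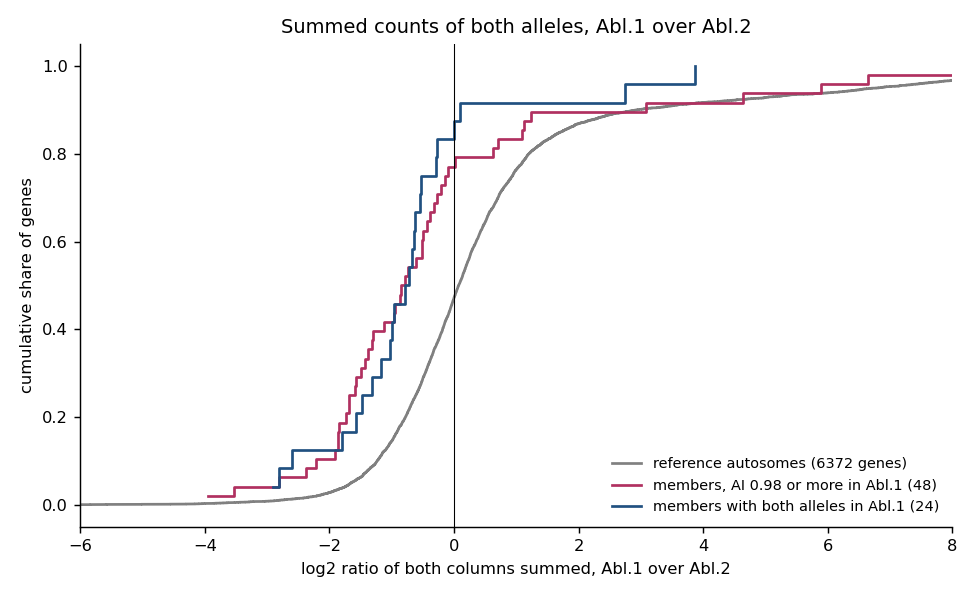
Cumulative share of genes by log2 ratio of both columns summed, Abl.1 over Abl.2, for 6372 reference genes, the 48 members with an AI of 0.98 or more and the 24 with both alleles (log2 from -6 to 8 shown). A ratio below 1 (log2 below 0) was found for 37 of the 48 genes, 20 of the 24 and 47.1% of the reference genes.

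Single genes departed far from these medians. Gas2l1, a cytoskeleton linker, had the highest ratio among genes with counts in both clones (99.8), with 30.5 and 47.2 scaled CPM in Abl.1 but 10 counts in all in Abl.2. Among genes with 200 or more counts in each clone Emid1, Selenom and Sec61g had the highest ratios. Emid1, an extracellular matrix protein, had 596 and 870 scaled CPM in Abl.1 and 10.9 and 13.3 in Abl.2, a ratio of 59.6. Selenom, a selenoprotein of the endoplasmic reticulum, had 371 and 158 against 29.5 and 27.5, a ratio of 8.48. Sec61g had 775 and 388 against 255 and 213, a ratio of 2.35. These 3 genes were higher in Abl.1 with 1 allele than in Abl.2 with both. The Abl.1 libraries also differed from each other, with replicate 1 higher at Selenom and Sec61g and replicate 2 higher at Emid1. The size of each ratio is uncertain by this spread. For Upp1, with no count in Abl.2, the ratio was at least 459 with 3 counts over the Abl.2 group as floor.

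The lowest ratios among genes with 200 or more counts in each clone were those of Polm, with 16.5 and 14.8 scaled CPM in Abl.1 against 238 and 246 in Abl.2 (ratio 0.0647), Pik3ip1 with 33.8 and 38.7 against 423 and 413 (ratio 0.0867), and Plek with 29.1 and 31.7 against 199.9 and 225 (ratio 0.143). All 3 were lower in Abl.1 in every library. On 120 Abl.1 counts, Nefh had a ratio of 0.134, with 9.10 and 3.35 scaled CPM against 43.8 and 39.8. All members of the lists of blood cell signalling (9 genes, median ratio 0.274) and DNA repair and growth control (7 genes, 0.334) were below 1. So were 10 of 11 RNA and chromatin genes (0.628), 4 of 6 mitochondrial (0.694) and 5 of 7 membrane traffic genes (0.689). Of the 2 epithelial and kidney genes 1 was below 1. Of all 73 members 78.1% were below 1, against 47.1% of the reference genes, so these small lists are not set apart from the segment. Uqcr10 had 2132 and 946 scaled CPM in Abl.1 against 1056 and 807 in Abl.2, so the libraries overlapped at a ratio of 1.54. Mrps24 had 1278 and 614 against 551 and 539, a ratio of 1.62 without overlap.

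Zmat5 had 66.3 and 35.7 scaled CPM in Abl.1, all paternal, against 48.2 and 47.6 in Abl.2 (ratio 1.02). Its paternal allele had a ratio of 2.07, and its maternal allele was at least 167-fold lower. Ykt6 had both alleles at 0.512 (maternal) and 0.486 (paternal) of its level in Abl.2. At Pold2 these ratios were 0.402 and 0.788, at Nf2 0.456 and 1.31, and at Ccm2 0.543 and 0.666. Ppp3r1 and Wdr92 had summed ratios of 0.831 and 1.00. At Ykt6 both alleles were thus lower in Abl.1 by a like amount.

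Values of Abl.2 and kidney did not enter the choice of the segment and were tested. The comparison asks whether AI at these genes differed between the other clone and tissue, with the same kit and input. Clone and tissue also differ in RNA extraction (per the paper's methods), read layout, platform and sequencing site, which cannot be told apart from the group. Of 57 members with 10 or more counts in every library 21 were called between Abl.2 and kidney at 10 ng (9 higher and 12 lower in Abl.2) by edgeR's quasi-likelihood test with Benjamini-Hochberg adjustment over 8294 genes. This is 36.8% of the members, against 40.9% of all genes tested, a share near that of all genes.

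The libraries of both groups did not overlap at 26 of the 57 members, against 43.1% of all genes. They did not overlap at 19 of the 21 called members, the exceptions being Sf3a1 and Sfi1. The largest difference was at Morc2a, a chromatin ATPase, with an AI of 0.0641 and 0.0222 in the Abl.2 libraries and 0.5, 0.672 and 0.761 (lowest, median and highest of 6) in kidney at 10 ng. The log2 odds ratio was -5.51 ± 0.44 (SE, edgeR adjusted p = 2.42e-09). Abl.2 thus expressed mostly the paternal-column allele of Morc2a, and Abl.1 had 656 maternal and no paternal counts, so here too the clones had opposite alleles.

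Sec61g went the other way. Its AI was 0.540 and 0.558 in Abl.2 and 0.0392, 0.0494 and 0.0624 in kidney (log2 odds ratio 4.55 ± 0.14, edgeR adjusted p = 8.24e-16). Kidney at 100 pg had 0.0492, 0.0599 and 0.0846. Kidney RNA thus carried the paternal-column allele of Sec61g almost alone, Abl.2 both alleles and Abl.1 the maternal one.

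Tcn2, which carries vitamin B12 in blood, had an AI of 0.0495 and 0.231 in Abl.2 on 101 and 78 counts, and 0.501, 0.503 and 0.510 in kidney (log2 odds ratio -2.78 ± 0.27, edgeR adjusted p = 4.37e-08). Castor1, an arginine sensor of the mTORC1 pathway, had 0.216 and 0.0222 on 51 and 45 counts against 0.256, 0.403 and 0.503 (adjusted p = 0.00728 by edgeR). Selenom had 0.441 and 0.437 against 0.642, 0.670 and 0.710 (adjusted p = 1.88e-07). Polm had 0.408 and 0.403 against 0.476, 0.653 and 0.852 (adjusted p = 0.000559). At each of these 4 genes every Abl.2 library lay below every kidney library. The call of Castor1 was lost with Bonferroni adjustment and without Abl.2 replicate 2 (edgeR adjusted p = 0.173). That of Polm was lost with Bonferroni adjustment, by limma, and on 4 libraries with or without a replicate block.

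The remaining called members had smaller differences. Xbp1 had 0.348 and 0.321 in Abl.2 against 0.495, 0.5 and 0.513 in kidney (edgeR adjusted p = 1.02e-10), and Uqcr10 had 0.537 and 0.546 against 0.469, 0.473 and 0.478 (adjusted p = 1.20e-09). Zmat5, Nf2 and Ccm2 were not called, with edgeR adjusted p of 0.678, 0.233 and 0.786 and differences in mean AI (Abl.2 minus kidney) of -0.0201, 0.0499 and -0.0178.

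**Figure D5:**
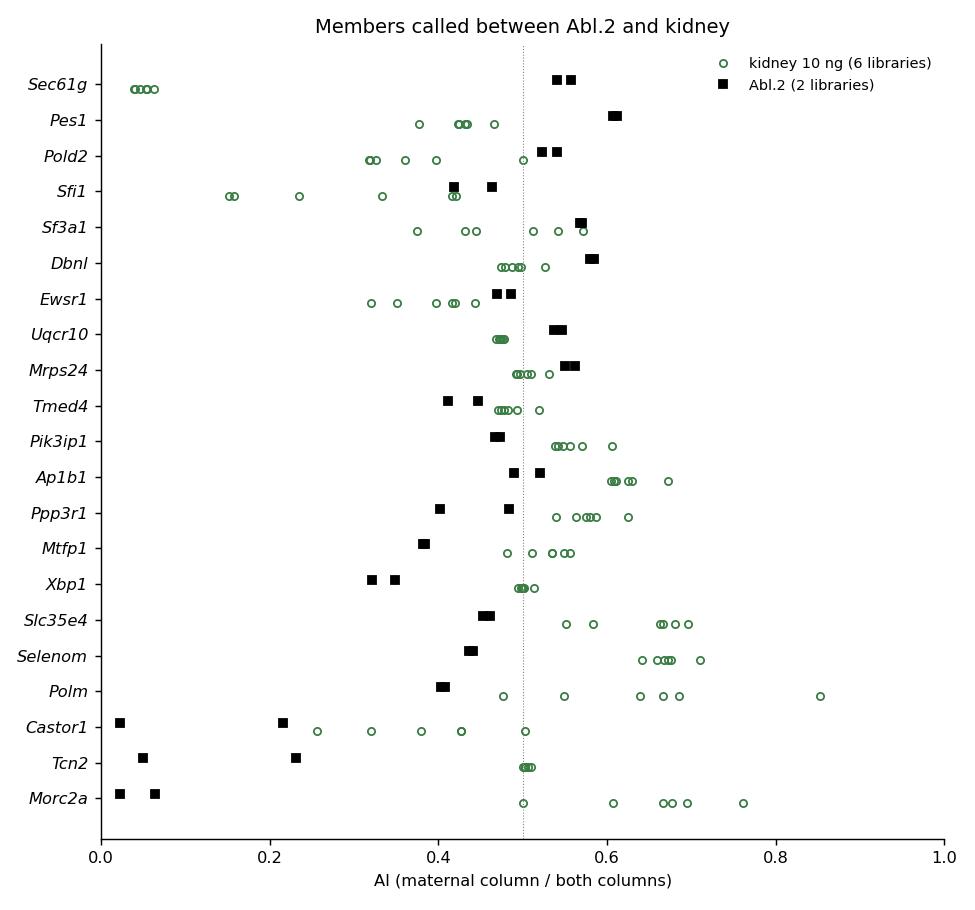
AI per library of the 21 members called between Abl.2 (squares, 2 libraries) and kidney at 10 ng (circles, 6 libraries), ordered by the difference of the means. Sec61g is at the top with an AI near 0.05 in kidney and 0.55 in Abl.2, and Morc2a at the bottom with the reverse order.

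Departure of AI from 0.5 within a group was tested on pooled counts scaled down by the squared quality correction coefficient (QCC), with a proportional test on both sides and Bonferroni adjustment over all genes. QCC is the excess spread of AI between libraries over binomial noise. It was 2.17 in Abl.2 and 1.85, 1.47 and 2.59 in kidney at 100 ng, 10 ng and 100 pg. For Abl.1, which was not tested, QCC was 2.53. At 100 ng it was 1.73 without replicate 1, which the paper names an outlier. In Abl.2, 17 of 69 members were called (10 towards the maternal and 7 towards the paternal side), 24.6% against 29.8% of all genes. Among them Nefh, a neurofilament protein, had an AI of 0.955 and 0.974 in Abl.2, and Plek, Morc2a and Nipsnap1 lay on the paternal side. Of 68 members with 50 or more Abl.2 counts 3 had an AI of 0.9 or more and 2 had 0.1 or less.

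In kidney 7 of 61 members were called at 100 ng (against 18.4% of all genes), 12 of 59 at 10 ng (24.4%) and 6 of 60 at 100 pg (14.3%). The members' shares were 11.5%, 20.3% and 10.0%. Sec61g, Nipsnap1 and the pseudogene Ube2d-ps were called in all 3 experiments. The pooled AI of Nipsnap1 was 0.391, 0.378 and 0.372 at 100 ng, 10 ng and 100 pg, and that of Ube2d-ps 0.603, 0.627 and 0.662.

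The kidney experiments share 1 RNA and differ in kit and input. Between 100 ng and 10 ng 5 of 59 members were called by edgeR, against 10.5% of all genes, 1 higher and 4 lower at 100 ng. Mrps24 had an AI of 0.431, 0.436 and 0.476 at 100 ng (lowest, median and highest) and 0.492, 0.501 and 0.531 at 10 ng (edgeR adjusted p = 2.35e-05). Ppp3r1 had 0.432, 0.481 and 0.518 against 0.539, 0.577 and 0.624 (adjusted p = 0.00224). Their libraries did not overlap.

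Smtn had 0.529, 0.566 and 0.598 at 100 ng against 0.317, 0.425 and 0.548 at 10 ng (edgeR adjusted p = 0.0298), and Sec61g had 0.0082, 0.0154 and 0.0647 against 0.0392, 0.0494 and 0.0624 (adjusted p = 0.0211). The fifth was Tcn2, with a difference in mean AI of -0.0142. Mrps24 and Ppp3r1 stayed called without any 1 library. The call of Smtn was lost without 100 ng replicate 2 or 4 or 10 ng replicate 1, 3 or 5, that of Sec61g without 100 ng replicate 1, 3 or 6 or 10 ng replicate 6, and that of Tcn2 without 100 ng replicate 1 or 6 or 10 ng replicate 2 or 3. The paper names 100 ng replicate 1 an outlier and leaves it out of several analyses, while it is kept here. Without it, Dbnl and Tbc1d10a were called in place of Sec61g and Tcn2. Between 10 ng and 100 pg none of 59 members was called by edgeR (smallest adjusted p = 0.637), DESeq2 or limma, and 0 had an unadjusted p under 0.05, where 0.659% of all genes were called.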

How the data were processed

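AI at 73 genes was analysed in 24 libraries, 18 of kidney and 6 of Abl clones. The authors aligned reads with STAR 2.5.4a to parental pseudogenomes (GRCm38), kept unique alignments, drew equal read numbers within an experiment, and summed allelic counts at SNPs over a gene's exons without positions that several genes share. Values are therefore raw whole-number counts per gene and allele, as deposited. Their AI tables hold pooled AI with confidence limits and were not used.

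Groups follow the sample titles. Differences in AI were tested with edgeR 4.0.16 (R 4.3.3; terms for library, allele and allele by group; 10 or more counts in each library; Benjamini-Hochberg at 0.05). DESeq2 1.42.0, limma 3.58.1, other minimums, scalings, adjustments, a replicate block and left-out libraries were alternatives. QCC came from pairs of libraries, thinned to equal totals where these differed by over 5%. The edgeR, DESeq2 and limma tests of Abl.2 against kidney and the QCC test were tested on simulated data. On those data edgeR missed more of the smaller changes than of the larger ones, so a member not called may still differ. Limits from 0 counts (floor of 3 counts) cover counting error only.

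The members, lists and tests were chosen with earlier results of these data known. Named were role-list members with 200 or more Abl.1 counts, the first 3 and last 5 members and the next 5 genes, the 5 members of highest paternal share with 200 or more Abl.1 counts, the 3 highest and 3 lowest summed ratios at 200 or more counts in each clone, up to 6 members called between Abl.2 and kidney and up to 4 called between kidney experiments. Emid1 and Selenom were named as extremes of the summed ratio. Genes at the count limit, the pseudogenes, Znrf3, Lif, Rhbdd3, Snhg15, H2afv, Gas2l1, Nefh, Ube2d-ps, Dbnl in kidney and Tcn2 as the fifth kidney call were named after their values were seen.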

Additional observations from a re-analysis of the deposited data

Results flagged for a closer look

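One value stood apart from its group. In replicate 4 of the 100 ng kidney libraries the AI of Sec61g was 0.0647, the highest, and the rest of the group ranged from 0.0082 to 0.0233. This gap was 0.733 of the whole range, above the critical value of 0.625 for 6 libraries. It was 1 of 51 groups of 6 libraries examined, fewer than the 5% that chance gives. The cause was not tested.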

How the results depend on the processing

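Of 21 members called between Abl.2 and kidney, 8 were called with Bonferroni adjustment. Of 5 called between 100 ng and 10 ng, 1 was with Bonferroni adjustment, 2 with DESeq2 and 3 with no count minimum (3 to 6 with 1 library left out). Numbers of called biased members were 17, 7, 12 and 6 for Abl.2 and kidney at 100 ng, 10 ng and 100 pg. They became 42, 24, 19 and 22 without QCC, and 42, 27, 23 and 12 with Benjamini-Hochberg adjustment. With 1 library alone, Abl.2 gave 9 or 10.

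With a replicate block the calls were 15, 4 and 0 for the 3 comparisons. The first used 4 libraries, where the same 4 libraries without the block, a setting chosen after seeing the data, also gave 15. Same-numbered libraries did not deviate together (correlations from -0.0399 to 0.0474), so the numbers do not pair the samples.

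The median AI of 0.998 in Abl.1 was 0.998 at 200 or more counts and 0.997 in each library alone, and that of 0.486 in Abl.2 was 0.482 or 0.499 in 1 library. The median maternal ratio of 0.903 turned above 1 at 200 or more counts (1.02) and without Abl.2 replicate 2 (1.01), so no direction is read from it. It was 0.717 with summed counts, 0.942 with DESeq2 size factors, 0.960 with a pseudocount of 2, and 0.897 to 1.01 with 1 library left out. The summed ratio of 0.583 was 0.463 with summed counts, 0.608 with DESeq2 size factors and 0.518 at 100 or more counts over both clones. Summed-count scaling moved the reference median of the summed ratio to 0.836. The members' median relative to it, 0.554, cannot change with the scaling, which multiplies all genes of a library alike. The paternal ratio of 0.00906 was 0.00461 at 200 or more counts, 0.0144 at 100 or more over both clones, 0.0227 with a pseudocount of 2 and 0.00922 to 0.0139 with 1 library left out.

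For single called genes 384 repeats kept the call, 67 lost it and 0 reversed. Mrps24 kept its call between 100 ng and 10 ng under all 19 alternatives, and 8 genes kept theirs between Abl.2 and kidney under all 17. Sf3a1 and Sfi1 lost theirs under 10 and 11 alternatives. Depth limits low genes such as Castor1, Tcn2 and Sfi1, and 2 libraries a clone limit every Abl value.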
